A study of Mus musculus with 30 samples.

Results

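The receptors, kinases and feedback inhibitors through which glia respond to interferons and to cytokines of the interleukin-6 family were examined as a group of 10 genes, chosen by name among the 30952 genes of the table. Of these, 17889 were annotated as protein-coding, and all 10 genes were found once. They were the interferon-gamma receptor chains Ifngr1 and Ifngr2, the type I interferon receptor chains Ifnar1 and Ifnar2, the gp130 subunit Il6st, the interleukin-6 receptor alpha chain Il6ra, the kinases Jak1 and Jak2, and the inhibitors Socs1 and Socs3. The 10 genes, and the lists of other genes used below, were chosen with earlier results of these data known.

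Expression was measured by RNA-seq in astrocytes and microglia sorted from the spinal cords of female C57BL/6 mice. Naive mice (n = 4) were compared with mice in which experimental autoimmune encephalomyelitis (EAE, a model of multiple sclerosis) was induced at 8 to 10 weeks of age with the MOG35-55 myelin peptide. The immunized mice received by gavage, from a clinical score of about 1, either 20% Captisol (EAE-vehicle, n = 6) or the RIPK1 kinase inhibitor GSK'547 at 50 mg/kg (EAE-RIPK1inh, n = 5), 2 times a day for 3 days. Each n applies to both cell types, giving 30 libraries. The study gives the same numbers of mice and sorted both cell types from their spinal cords. Each library is thus taken as 1 cell type of 1 mouse, and the cell types share mice. The labels do not say which libraries share a mouse, so the main fits across cell types treated the 30 libraries as independent. The naive mice are not described as dosed, so immunization and dosing with vehicle cannot be told apart. Microglia were sorted as CD11b+ CD45int CX3CR1+ cells and astrocytes as GLAST+ cells lacking CD11b, CD45 and CD140a, so each library is a gated population in bulk.

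Interferon-gamma binds IFNGR1 and IFNGR2, which carry JAK1 and JAK2. Type I interferons bind IFNAR1 and IFNAR2, which act through JAK1 and TYK2. Interleukin-6 binds its alpha chain and then gp130, the signal-transducing chain shared by LIF, oncostatin M, CNTF and interleukin-27, and STAT3 is the main factor activated. SOCS1 and SOCS3 are induced by this signaling and act back on the receptors: SOCS1 chiefly on interferon signaling and SOCS3 chiefly on gp130.

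Values are log2 FPKM, fragments scaled for exon length and for library size, so that levels can be set beside each other between genes. The 8 microglia markers averaged 7.82 to 10.79 in the microglia libraries and 1.09 to 3.84 in the astrocyte libraries, and the 8 astrocyte markers averaged 8.30 to 9.64 in the astrocyte libraries and 0.99 to 2.23 in the microglia libraries, as the labels have it. The astrocyte libraries also held oligodendrocyte markers at 4.11 to 8.82 and neuron markers at 4.17 to 6.38. In the microglia libraries these averaged 0.98 to 1.75 and 0.04 to 0.83. The part of such cells in the astrocyte values, and in the differences between cell types, was not tested. Microglia libraries held 8710 to 20398 genes with signal and those of astrocytes 6728 to 22981, the fewest being in EAE-vehicle astrocyte library 1. Signal was read from the deposited values, not from reads. The run of lowest values in a library that follows the gene order was taken as without signal. It is not a detection limit: Il6ra at 0.0048 in naive astrocyte library 1 counts as signal. A member without signal in a library is listed there at 0.18 or less, a value that the normalization assigned.

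Of the 10 genes, 3 hold in the 250 bases upstream of their RefSeq start a sequence of the kind that the pathway's own factors bind. These stretches are printed for that reason, in the direction of the gene, from build GRCm38.p6, with the match in capitals. The gamma-activated site was searched as TTCNNNGAA and the interferon-stimulated response element as GAAA, any 2 bases and GAAA again, on both strands. A gamma-activated site was found in 7.02% of 32851 mouse promoters and an interferon-stimulated response element in 2.98%. A match describes the letters and shows no binding.
Socs1 (chr16:10785569-10785654, minus strand): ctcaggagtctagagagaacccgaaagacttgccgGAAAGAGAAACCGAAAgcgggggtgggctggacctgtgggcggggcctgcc
Socs3 (chr11:117969477-117969555, minus strand): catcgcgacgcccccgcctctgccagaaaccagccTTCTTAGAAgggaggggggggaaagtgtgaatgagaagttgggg
Ifnar2 (chr16:91372534-91372612, plus strand): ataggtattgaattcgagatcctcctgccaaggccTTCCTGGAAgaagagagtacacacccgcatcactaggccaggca
In Socs1 the capitals are 2 overlapping response elements, 83 to 68 bases upstream of the start. In Socs3 they are a gamma-activated site 154 to 146 bases upstream of the RefSeq start, and in Ifnar2 one 214 to 206 bases upstream. The Socs3 stretch lies inside the gene as GENCODE M21 places it (chr11:117966079-117970047). It is therefore upstream of the RefSeq start only, and downstream of the GENCODE start. The windows of the other 7 genes held neither set of letters.

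The level of each gene in naive microglia set the order against which EAE was read. Ifngr1 was the highest of the 10 at 9.70 ± 0.25 log2 FPKM (SD, n = 4), and Ifnar2 followed at 7.11 ± 0.41. Ifngr2 (5.74 ± 0.79), Jak1 (5.66 ± 0.94), Il6st (5.46 ± 0.45), Il6ra (5.35 ± 1.07) and Ifnar1 (4.98 ± 0.28) came next, and neighbours among these differed by less than the larger of their SDs. Socs3 (3.87 ± 1.49) lay 2.13 above Jak2 (1.74 ± 1.70), and Socs1 was the lowest at 1.05 ± 1.03. The ligand-binding chain of each interferon receptor was therefore above its partner chain, per length, in every naive microglia library: Ifngr1 exceeded Ifngr2 by 3.23 to 4.67, and Ifnar2 exceeded Ifnar1 by 1.59 to 2.68 on the log2 scale.

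**Figure D1:**
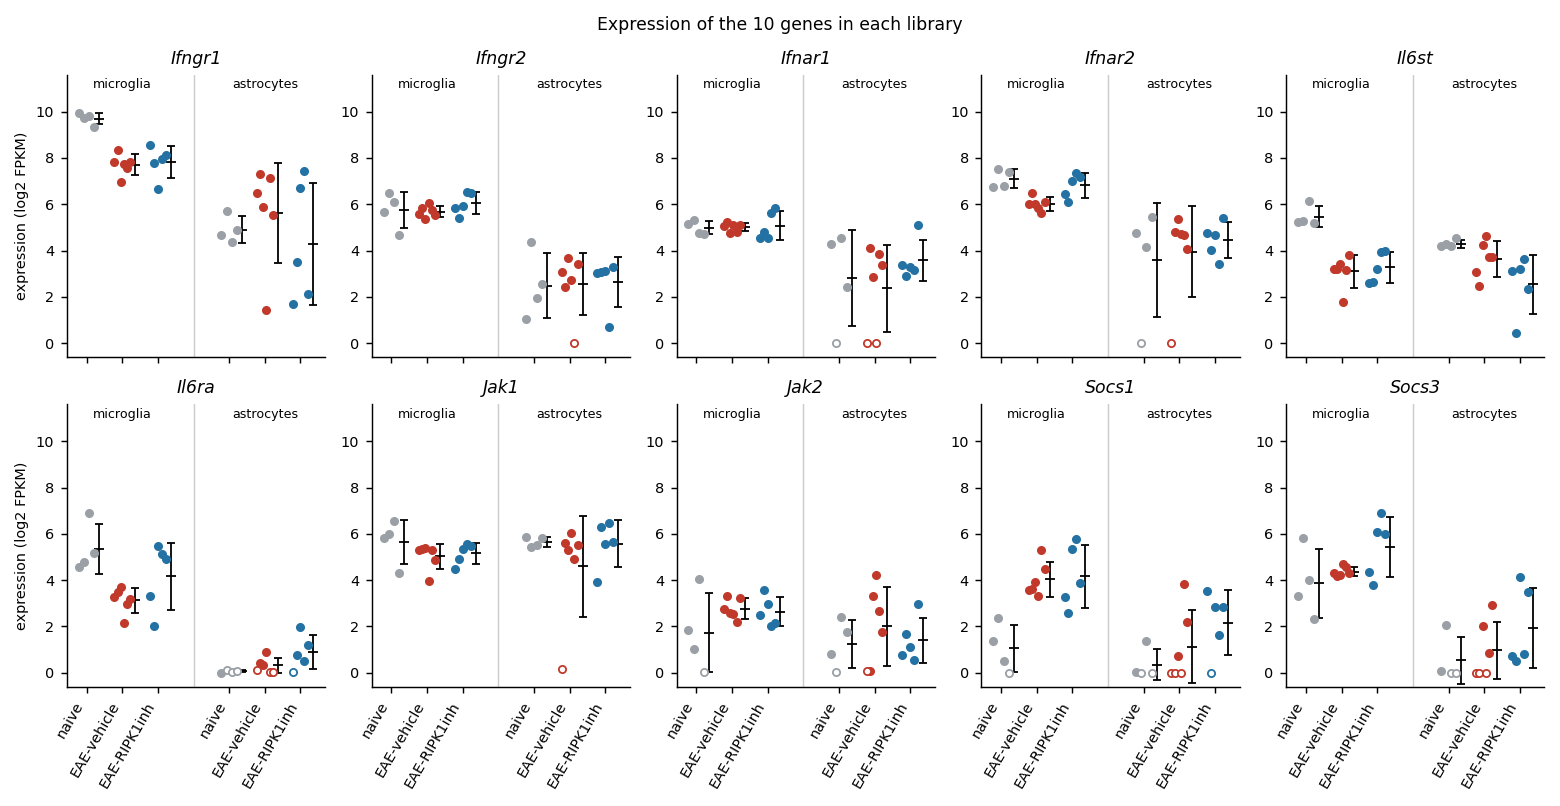
Expression (log2 FPKM, vertical axis) of the 10 genes in each of the 30 libraries, by cell type and treatment. Filled points have signal, open points are listed without signal, and bars give the mean ± SD; Ifngr1, Il6st and Il6ra in naive microglia lie above both EAE groups on average, Socs1 below, and the astrocyte points scatter more widely.

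With EAE, microglia had less mRNA of both gp130 receptor chains and of both ligand-binding interferon receptor chains, and more of Socs1. A gene was called where its fold change exceeded 1.5 and the limma p was under 0.05, which is the cutoff of the study. In EAE-vehicle against naive microglia, 5 of the 10 genes were called, where 12.0% of all 28958 genes tested and 29.3% of the 9704 protein-coding genes with a mean of at least 1 were called. The change was to a lower level in 4, beside 5.86% of all genes, and to a higher one in 1, beside 6.13%. Of the protein-coding genes with a mean of at least 1, 12.9% were called lower and 16.4% higher. After Benjamini-Hochberg adjustment over all genes 4 of the 10 passed, as 3.92% of all genes and 10.7% of those protein-coding genes did. In the 5 called genes no EAE-vehicle library overlapped a naive library, a separation seen in 5.26% of all genes. The members' median change was -0.34 beside -0.02 for all genes. In bulk libraries, fewer cells of a kind and less RNA per cell cannot be told apart.

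Ifngr1 (ENSMUSG00000020009, chr10:19591949-19610229) encodes the ligand-binding chain of the interferon-gamma receptor. Its level was 9.92, 9.73, 9.80 and 9.34 log2 FPKM in the naive microglia libraries and between 6.95 and 8.33, with a median of 7.77, in the EAE-vehicle libraries. All 6 EAE-vehicle libraries lay below every naive library. The gene was 3.99-fold lower (log2 change -2.00, SE 0.32, limma adjusted p = 0.00179), and the exact two-sided permutation test over libraries gave p = 0.00476, the smallest that 4 against 6 libraries allow. Ifngr2 (chr16:91547072-91565623), the signaling chain of the same receptor, was at 5.74 ± 0.79 and 5.69 ± 0.25 and was not called (log2 change -0.05, 95% interval -0.74 to 0.64). Within each library, Ifngr1 exceeded Ifngr2 by 3.96 ± 0.63 in naive and by 2.02 ± 0.36 in EAE-vehicle microglia, and these ranges did not overlap.

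The type I interferon receptor showed the same division between its chains. Ifnar2 (ENSMUSG00000022971, chr16:91372783-91405589), which binds the ligand with high affinity, measured 6.73, 7.51, 6.79 and 7.40 in naive microglia and 5.61 to 6.48, with a median of 6.02, in EAE-vehicle microglia. The highest EAE-vehicle library was thus below the lowest naive library. The gene was 2.13-fold lower (log2 change -1.09, SE 0.27, limma adjusted p = 0.0317; exact permutation p = 0.00476). Its partner Ifnar1 (chr16:91485238-91507441) was at 4.98 ± 0.28 in naive and 5.02 ± 0.19 in EAE-vehicle microglia (log2 change 0.03, 95% interval -0.54 to 0.61). Ifnar2 exceeded Ifnar1 by 2.13 ± 0.45 in naive and by 1.00 ± 0.21 in EAE-vehicle libraries. The annotation places Gm21970 on the same strand over Ifnar2 and the deposited table marks Ifnar2 as confounded, so reads of this pair may have been divided between them.

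Il6st (ENSMUSG00000021756, chr13:112464070-112510086), the gp130 chain, had the largest fall of the 10. Naive microglia measured 5.22, 5.28, 6.13 and 5.21, and EAE-vehicle microglia 1.77 to 3.80 with a median of 3.20. The groups were more than 1 log2 unit apart at their nearest libraries. Il6st was 5.15-fold lower (log2 change -2.36, SE 0.40, limma adjusted p = 0.00285; exact permutation p = 0.00476). Il6ra (ENSMUSG00000027947, chr3:89864059-89913196), which binds interleukin-6 itself, measured 4.55, 4.78, 6.91 and 5.16 in naive and 2.16 to 3.69, median 3.22, in EAE-vehicle microglia. It too was lower in all 6 EAE-vehicle libraries than in any naive one, by 4.68-fold (log2 change -2.23, SE 0.64). Its exact permutation p was 0.00476, but its limma p of 0.00366 became 0.0743 after adjustment over all genes, which did not pass. Within libraries, Il6st minus Il6ra averaged 0.11 ± 0.65 in naive and -0.03 ± 0.38 in EAE-vehicle microglia. Single libraries ranged from -0.78 to 0.67 and from -0.38 to 0.62. Il6ra is marked as confounded, and the antisense gene Gm42809 lies over it. The libraries were made by a method that does not mark strand, so reads of this pair cannot be told apart.

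The kinases did not pass the cutoff. Jak1 (chr4:101152367-101265282), shared by all of these receptors, was at 5.66 ± 0.94 in naive and 5.03 ± 0.55 in EAE-vehicle microglia (log2 change -0.63, 95% interval -1.49 to 0.23). All 6 EAE-vehicle libraries were under the naive mean, and naive library 4, at 4.32, was lower than 5 of them. That library had the fewest genes with signal in microglia, and without it Jak1 was called at -1.08, as it was with library quality weights (-1.004); Raver2, Gm24468 and Gm12785 overlap Jak1, which is marked as confounded. Jak2 (chr19:29251828-29313080), which serves the interferon-gamma receptor, ranged from 0.04, without signal, to 4.03 in naive and from 2.20 to 3.33 in EAE-vehicle microglia (log2 change 1.04, 95% interval -0.25 to 2.33), and without naive library 3 it was called at 1.80.

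Socs1 (ENSMUSG00000038037, chr16:10782240-10785536), the inhibitor of interferon receptor kinases whose upstream stretch is printed above, was the member that rose. It measured 1.35, 2.35 and 0.51 in naive libraries 1 to 3, had no signal in naive library 4, and measured 3.30 to 5.30, median 3.78, in EAE-vehicle microglia. Every EAE-vehicle library was above every naive library. The log2 change was 2.98 (SE 0.64, limma adjusted p = 0.0154; exact permutation p = 0.00476), a 7.90-fold difference of the deposited values. Socs3 (chr11:117966079-117970047), the inhibitor that binds gp130, was at 3.87 ± 1.49 and 4.37 ± 0.21 and was not called (log2 change 0.51, 95% interval -0.87 to 1.89). Naive Socs3 alone ranged from 2.31 to 5.83, and the 6 EAE-vehicle libraries lay within that range. Socs3 exceeded Socs1 by 2.81 ± 0.80 in naive and by 0.34 ± 0.75 in EAE-vehicle microglia.

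All 5 calls held in each alternative fit and with any 1 of the 15 libraries left out. Markers of microglia moved with these genes: 8 of 8 were called lower (median log2 change -2.08), and their mean per library was 9.96 to 10.79 in naive and 7.82 to 8.43 in EAE-vehicle microglia. Of 10 monocyte and neutrophil markers, 2 were called higher and 1 lower, and their mean was 2.36 to 6.93 in naive and 2.93 to 6.56 in EAE-vehicle libraries; Ccr2 was without signal in all naive microglia libraries. T cell markers averaged at most 0.69 in both groups. The part of cell makeup in the members' changes was not tested.

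**Figure D2:**
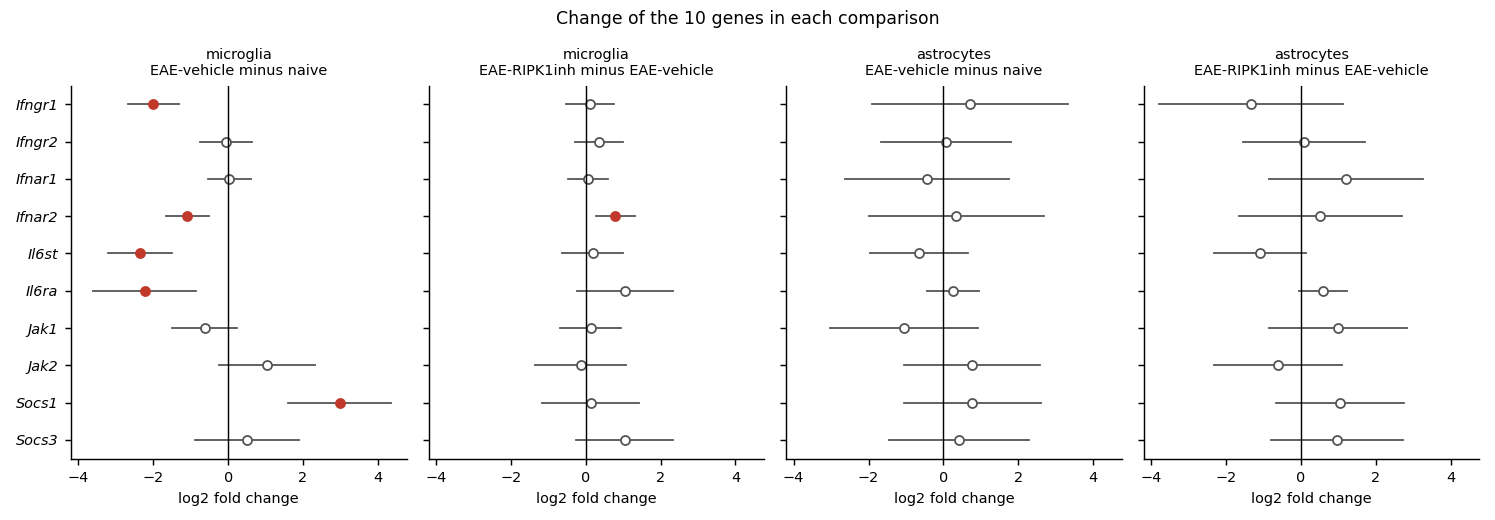
Log2 fold change (horizontal axis) of the 10 genes in each cell type for EAE-vehicle minus naive and for EAE-RIPK1inh minus EAE-vehicle, with 95% intervals. Filled points passed the cutoff: 5 in microglia with EAE, Ifnar2 with the inhibitor in microglia, and none in astrocytes, whose intervals are wider.

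In microglia of inhibitor-treated mice, 1 of the 10 genes was called against EAE-vehicle, where 1.76% of all genes were in either direction and 1.06% to a higher level. Of protein-coding genes with a mean of at least 1, 3.62% were called in either direction and 1.97% to a higher level. The called member was Ifnar2, at 6.46, 6.08, 6.99, 7.34 and 7.18 log2 FPKM against 5.61 to 6.48 in EAE-vehicle microglia. All 5 libraries were above the EAE-vehicle mean, and libraries 3, 4 and 5 were above every EAE-vehicle library. The gene was 1.73-fold higher (log2 change 0.79, SE 0.25, limma p = 0.00649), with an exact permutation p of 0.0195, but the p adjusted over all genes was 0.93. It passed the cutoff in all alternatives and in all fits that left out a library. The same EAE-vehicle libraries serve both comparisons, so the lower level with EAE and the higher level with the inhibitor are not independent. Ifnar1 was at 5.07 ± 0.62 beside 5.02 ± 0.19, and Ifnar2 exceeded it by 1.28 to 2.44 in EAE-RIPK1inh and by 0.73 to 1.24 in EAE-vehicle microglia. Of the 8 microglia markers, 3 were also called higher with the inhibitor (median log2 change 0.46), and their part in the Ifnar2 values was not tested.

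The other 9 genes were not called between these groups. Ifngr1 (7.82 ± 0.70), Il6st (3.28 ± 0.66), Jak1 (5.16 ± 0.46), Jak2 (2.63 ± 0.63) and Socs1 (4.17 ± 1.36) had log2 changes of -0.14 to 0.18, with 95% intervals from -1.35 to 1.43 at the widest, and Ifngr2 (6.03 ± 0.48) one of 0.35 (95% interval -0.30 to 0.99). Il6ra and Socs3 were split among the inhibitor-treated mice. Il6ra measured 3.32 and 2.04 in libraries 1 and 2, and 5.47, 5.14 and 4.89 in libraries 3, 4 and 5. For Socs3, libraries 1 and 2 were at 4.36 and 3.79, and libraries 3, 4 and 5 at 6.08, 6.89 and 5.98. Libraries 3, 4 and 5 were above all EAE-vehicle libraries for both genes, library 1 was within their range and library 2 below it. The log2 change was 1.05 for each, with 95% intervals of -0.24 to 2.34 for Il6ra and -0.25 to 2.34 for Socs3, and exact permutation p of 0.119 and 0.106. Without library 2 both were called, at 1.58 and 1.45. Ifnar2, Ifngr2, Il6st, Jak1 and Socs1 were also lower in libraries 1 and 2 than in libraries 3, 4 and 5. Ifngr1, Ifnar1 and Jak2 were not divided in this way. The microglia markers averaged 8.46, 7.85, 8.50, 8.92 and 9.37 in libraries 1 to 5, and the monocyte and neutrophil markers 2.43, 4.09, 7.97, 3.71 and 4.11. T cell markers were highest in library 3, at 2.08, and the part of these markers in the split was not tested.

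In astrocytes none of the 10 genes was called with EAE, where 6.71% of all 30718 genes tested were. Of the 10414 protein-coding genes with a mean of at least 1, 16.5% were called. limma gave 0 members an unadjusted p under 0.05 there, and 2126 genes of the table had one. In naive astrocytes Jak1 was highest at 5.65 ± 0.22 (SD, n = 4), followed by Ifngr1 at 4.90 ± 0.58 and Il6st at 4.30 ± 0.18, each gap larger than the larger SD of its neighbours. Ifnar2 (3.59 ± 2.45), Ifnar1 (2.81 ± 2.09), Ifngr2 (2.48 ± 1.41) and Jak2 (1.25 ± 1.04) could not be ranked beyond their spread. Socs3 and Socs1 had signal in 2 of 4 naive astrocyte libraries each, up to 2.06 and 1.37. Il6ra had signal in 1 of the 4 and was listed at 0.00 to 0.11.

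Il6st measured 4.19, 4.27, 4.18 and 4.56 in naive astrocytes and 2.45 to 4.63, median 3.72, in EAE-vehicle astrocytes. These groups overlapped (log2 change -0.66, 95% interval -1.97 to 0.65). Jak1 was between 4.90 and 6.03 in 5 EAE-vehicle libraries and without signal in library 1, the library with the fewest genes with signal, and its mean was 4.59 ± 2.19 (log2 change -1.05, 95% interval -3.02 to 0.92). In that library Ifnar1, Ifnar2, Il6ra, Jak2, Socs1 and Socs3 were also without signal. Socs1 had signal in 3 of 6 EAE-vehicle astrocyte libraries, at 0.70, 3.85 and 2.19, and Socs3 in 3, at 2.02, 0.85 and 2.92.

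Ifngr1 varied over a wide range in astrocytes of EAE mice and moved with T cell genes there. EAE-vehicle astrocyte libraries 1 to 6 measured 6.50, 7.30, 5.86, 1.44, 7.12 and 5.51 for Ifngr1, while the mean of 8 T cell markers was 3.83, 5.45, 5.18, 0.95, 5.88 and 4.35. The EAE-RIPK1inh libraries 1 to 5 measured 1.70, 3.52, 6.68, 7.44 and 2.12, beside T cell means of 0.84, 3.18, 5.52, 5.39 and 2.47. The library with the lowest Ifngr1 in each EAE group was the one with the lowest T cell mean. Naive astrocytes had Ifngr1 at 4.36 to 5.71 with T cell means of 0.17 to 0.98, and Cd3d, Lck and Cd2 were without signal in all 4. Of the 8 T cell markers, 6 were called higher in EAE-vehicle than in naive astrocytes (median log2 change 4.21), as were 5 of 9 monocyte and neutrophil markers and 4 of 6 oligodendrocyte markers; their part in the Ifngr1 values was not tested. The sort removed CD45+ cells by gating.

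**Figure D3:**
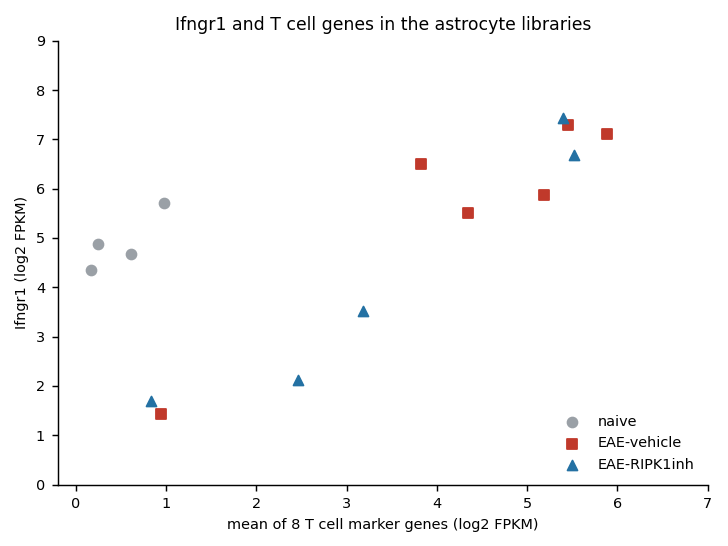
Ifngr1 (vertical axis, log2 FPKM) against the mean of 8 T cell marker genes (horizontal axis, log2 FPKM) in the 15 astrocyte libraries. Each point is 1 library; among the EAE libraries those with T cell means of 0.84, 0.95 and 2.47 have Ifngr1 at 1.70, 1.44 and 2.12, and the naive libraries lie at the left at 4.36 to 5.71.

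With the inhibitor, no member was called in astrocytes, where 3.02% of all genes and 6.44% of protein-coding genes with a mean of at least 1 were. limma gave 0 genes of the table an adjusted p under 0.05 in this comparison and 998 an unadjusted p under 0.05. The smallest unadjusted p among the members were those of the gp130 receptor chains. Il6st measured 3.10, 0.42, 3.21, 3.62 and 2.32, all 5 under the EAE-vehicle mean of 3.64 (log2 change -1.11, 95% interval -2.33 to 0.12; exact permutation p = 0.104). Il6ra measured 0.05 without signal, 0.78, 1.98, 0.50 and 1.20, against 0.02 to 0.91 in EAE-vehicle astrocytes (log2 change 0.59, 95% interval -0.06 to 1.24; exact permutation p = 0.0974). Socs1 had signal in 4 of 5 EAE-RIPK1inh libraries and Socs3 in all 5, with log2 changes of 1.04 and 0.96 whose intervals reached from -0.67 to 2.76 and from -0.79 to 2.72. Leaving out 1 library gave calls to Ifngr1 at -2.17 and Il6ra at 0.71 (without EAE-vehicle library 4), to Il6st at -1.34 or -1.38 (without EAE-vehicle library 2 or EAE-RIPK1inh library 4), to Il6ra at 0.80 (without EAE-RIPK1inh library 1) and to Socs1 at 1.59 (without EAE-vehicle library 5).

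Microglia carried more mRNA of most of these genes than astrocytes did. In naive mice 7 of 10 were called higher in microglia, where 10.0% of all 30952 genes were called higher. Of the 10781 protein-coding genes with a mean of at least 1, 22.4% were called higher. The 7 called members were all without overlap between cell types, as 12.3% of all genes were in either direction. Ifngr1 was 27.8-fold higher in microglia (log2 difference 4.79, SE 1.02), Ifnar2 11.4-fold (3.52, SE 0.90) and Ifngr2 9.55-fold (3.25, SE 0.68), with limma adjusted p of 0.0012, 0.00712 and 0.000966. In all comparisons across cell types, SE and p rest on 1 spread per gene shared by all 30 libraries. They do not measure the spread of the compared groups alone. For Ifngr1 the SD was 0.25 and 0.58 in naive microglia and astrocytes, and 2.16 and 2.63 in EAE-vehicle and EAE-RIPK1inh astrocytes. Socs3 was at 2.31 to 5.83 in microglia and had signal in 2 of 4 astrocyte libraries, at 0.09 and 2.06, so no fold is given (limma adjusted p = 0.00723). Ifnar1 (2.17) and Il6st (1.16) passed the cutoff with limma adjusted p of 0.106 and 0.232. Ifnar1 lost its call without naive astrocyte library 2, where it had no signal (log2 difference 1.23), and Il6st in 16 of 30 fits that left out a library and in 4 of 7 other alternatives. Il6ra was at 4.55 to 6.91 in microglia and at 0.00 to 0.11 in astrocytes, so no fold is given. Jak1 did not divide the cell types, at 5.66 ± 0.94 in microglia and 5.65 ± 0.22 in astrocytes (log2 difference 0.01, 95% interval -1.63 to 1.66).

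In EAE-vehicle mice again 7 genes were called higher in microglia, beside 12.4% of all genes, but not the same 7. Of protein-coding genes with a mean of at least 1, 29.7% were called higher. Of the members, 5 were without overlap, as 7.96% of all genes were. Socs1 was among the 7 called here (log2 difference 2.91, SE 0.68, limma adjusted p = 0.00313). Il6st was not, at 3.10 ± 0.69 in microglia and 3.64 ± 0.79 in astrocytes (-0.54, 95% interval -1.48 to 0.39). Ifngr2 (3.13), Ifnar1 (2.64), Il6ra (2.81) and Socs3 (3.41) had limma adjusted p of at most 0.00762. Ifngr1 (2.08) and Ifnar2 (2.07) passed the cutoff without passing the adjustment, and Ifngr1 lost its call without EAE-vehicle astrocyte library 4 (log2 difference 1.24). Of all genes, 19.7% in naive and 22.4% in EAE-vehicle mice were called between the cell types in either direction.

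The difference between the effects of EAE in microglia and in astrocytes was tested in a fit of all 30 libraries. It was called for 3 of the 10 genes, each lower in microglia, where 3.71% of all genes were called lower and 8.68% in either direction. Of protein-coding genes with a mean of at least 1, 7.05% were called lower and 17.7% in either direction. The EAE effect was lower in microglia by 2.49 for Il6ra (SE 0.77), by 1.71 for Il6st (SE 0.72) and by 2.71 for Ifngr1 (SE 1.32). None passed adjustment over all genes, with limma adjusted p of 0.138, 0.413 and 0.547. The Il6ra difference rests on astrocyte values near 0, and that of Ifngr1 was lost in 23 of 30 fits that left out a library and in 4 of 7 other alternatives. Il6st lost its call without naive microglia library 3 (-1.48) or EAE-vehicle microglia library 4 (-1.44), and without EAE-vehicle astrocyte library 1 Ifnar2 was called at -2.23. For Socs1 the difference was 2.21 higher in microglia (95% interval -0.01 to 4.42, limma adjusted p = 0.553), and it was called in 9 of 30 fits that left out a library. The difference between the inhibitor's effects was called for none of the 10 genes, beside 3.15% of all genes and 5.22% of those protein-coding genes. These comparisons share libraries with those within each cell type.

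**Figure D4:**
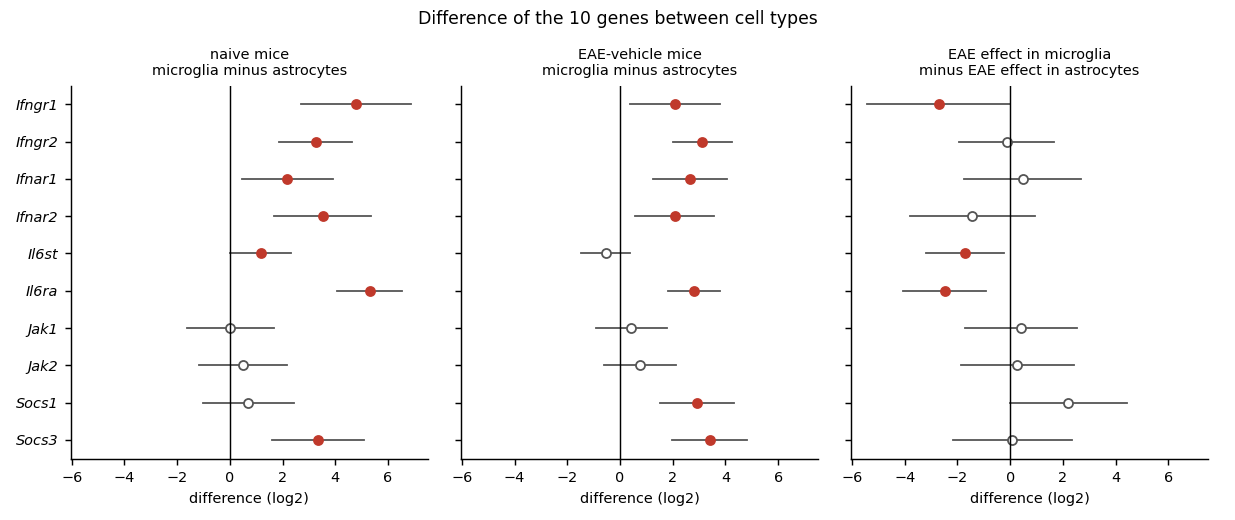
Difference of the 10 genes (log2, horizontal axis) between microglia and astrocytes in naive and in EAE-vehicle mice, and the difference between their EAE effects, with 95% intervals. Filled points passed the cutoff: 7 genes are higher in microglia in each treatment, and Ifngr1, Il6st and Il6ra have a lower EAE effect in microglia.

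The genes that act before and after these receptors were taken as 6 lists. Of 10 ligands, 9 could be tested in microglia. Microglia of EAE-vehicle mice had more Il27, the interleukin-27 p28 subunit (log2 change 3.32, SE 0.51, limma adjusted p = 0.00131), and less Il6 (-1.95, SE 0.42, limma adjusted p = 0.0153); in all, 1 was called higher and 3 lower, the others being Osm (-2.01) and Clcf1 (-2.52), named to complete the count. Il6 was at 0.96 to 3.25 in naive and at 0.10 to 1.02 in EAE-vehicle microglia, with signal in 3 of those 6 libraries. Ifng, the interferon-gamma gene, had signal in none of the 15 microglia libraries and in none of the naive astrocyte libraries. It had signal in 5 of 6 EAE-vehicle astrocyte libraries, up to 6.61, and in 2 of 5 EAE-RIPK1inh astrocyte libraries, up to 4.94. Ifng was the 1 ligand called in EAE-vehicle astrocytes (limma adjusted p = 0.315), and with naive astrocytes at 0 no fold is given. The T cell markers averaged 0.17 to 0.98 in naive, 0.95 to 5.88 in EAE-vehicle and 0.84 to 5.52 in EAE-RIPK1inh astrocyte libraries, and their part in the Ifng values was not tested.

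Of 7 other receptor chains, 1 was called in microglia with EAE, Il10rb, a chain shared by receptors of the interleukin-10 family (-0.93, SE 0.23, limma adjusted p = 0.0362). Cntfr, the alpha chain for CNTF, was the 1 called in astrocytes (-2.25, limma adjusted p = 0.558). Among 5 other kinases and transcription factors, 2 were called higher in microglia and 1 in astrocytes, and none passed adjustment. Jak3, the kinase of the common cytokine receptor chain, was at 0.89 to 2.54 in naive and 3.06 to 4.30 in EAE-vehicle microglia (log2 change 1.48, SE 0.59, limma adjusted p = 0.244). Stat2, a transcription factor of type I interferon signaling, had a log2 change of 1.35 there (SE 0.56, limma adjusted p = 0.279). In astrocytes the call was of Stat3 (0.87, SE 0.34, limma adjusted p = 0.521). Of 16 other inhibitors, 2 were called higher and 3 lower in microglia, which is near the 29.3% of protein-coding genes with a mean of at least 1 that were called there. Usp18, which acts at IFNAR2, rose by 2.73 (SE 0.70, limma adjusted p = 0.0433), and Socs2, with signal in 2 of 4 naive libraries, by 2.40 (SE 0.44, limma adjusted p = 0.00509). In astrocytes 4 inhibitors were called higher and none passed adjustment: Usp18 had signal in 1 of 4 naive libraries and was at 2.42 to 6.85 with EAE, and Ptpn6, the phosphatase SHP-1, had signal in none of them and was at 1.32 to 6.26 with EAE. The same astrocyte libraries had 6 of 8 T cell markers and 5 of 9 monocyte and neutrophil markers called higher (median log2 changes 4.21 and 2.99), and the part of these cells in the inhibitor values was not tested.

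All 14 interferon target genes were called higher in EAE-vehicle microglia and all 14 passed adjustment, with a median log2 change of 3.38 beside -0.02 for all genes. In microglia the guanylate-binding protein genes Gbp2 and Gbp3 rose by 8.07 (SE 0.44) and 4.32 (SE 0.26), and the chemokine genes Cxcl10 and Cxcl9 by 5.55 (SE 0.62) and 5.38 (SE 0.42), with signal in 3, 4, 3 and 2 of 4 naive libraries. In astrocytes 12 of 14 were called higher, 9 after adjustment, with a median of 5.02 beside 0.03 for all genes. The immunoproteasome gene Psmb8 was at 0.00 to 0.25 in naive astrocytes, with signal in 1 of 4 libraries, and at 8.08 to 9.60 in EAE-vehicle astrocytes. Gbp2, Igtp and Gbp3 had log2 changes of 7.91 (SE 0.43), 7.02 (SE 0.81) and 6.49 (SE 0.72) there, with signal in 2, 3 and 4 of 4 naive libraries. In microglia the targets were higher beside lower Ifngr1 and Ifnar2 and higher Socs1, and in astrocytes with no member called. The EAE effect on 8 of the 14 targets differed between the cell types, 3 being higher in microglia and 5 lower, among them Cxcl9 (3.50) and Psmb8 (-6.96), Igtp (-5.20) and Psmb9 (-4.47), each past adjustment. Of the ligands, Il27 (3.26) and Il6 (-1.97) also passed it. In astrocytes 6 of 8 T cell markers and 5 of 9 monocyte and neutrophil markers were also called higher with EAE. Their median log2 changes were 4.21 and 2.99. The part of such cells in the astrocyte target values, and in the differences between cell types, was not tested.

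Targets of gp130 and STAT3 did not move one way in microglia: of 10, 2 were called higher and 3 lower, with a median of -0.14. Pim1, a kinase gene, rose by 2.78 (SE 0.53, limma adjusted p = 0.00636). The immediate-early genes Fos and Junb, which many other stimuli also induce, fell by 4.91 (SE 1.20, limma adjusted p = 0.0319) and by 3.50 (SE 0.84, limma adjusted p = 0.0288). In astrocytes 5 of 10 were called higher and none lower, with a median of 2.06. Lcn2, the lipocalin of reactive astrocytes, was at 0.00 to 2.44 in naive and 7.60 to 9.43 in EAE-vehicle astrocytes (limma adjusted p = 3.19e-05), and Timp1 and Junb rose by 4.55 (SE 0.92) and 3.90 (SE 0.79), with limma adjusted p of 0.0396 and 0.0391 and signal in 2 of 4 naive libraries each. The EAE effects differed between cell types after adjustment for Junb (-7.40), Fos (-7.61), Cebpd (-4.12) and Timp1 (-4.44), each lower in microglia. For these genes too, the part of the T cell, monocyte and neutrophil markers that were higher in EAE-vehicle astrocytes was not tested.

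With the inhibitor no listed gene passed adjustment in either cell type. In microglia Osm, the oncostatin M ligand (log2 change 1.25), the kinase Tyk2 (0.88) and the adaptor Sh2b3 (0.73) passed the cutoff, with a limma adjusted p of 0.93 each. In astrocytes Gbp3 (-1.65), Ciita (1.48), the class II transactivator, and Pias2 (-2.37) were among 4 listed genes that did, with a limma adjusted p of 0.84 each; the other was Gbp2 (-1.01), named to complete the count. Of the 14 interferon targets, 0 in microglia and 3 in astrocytes were called.

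**Figure D5:**
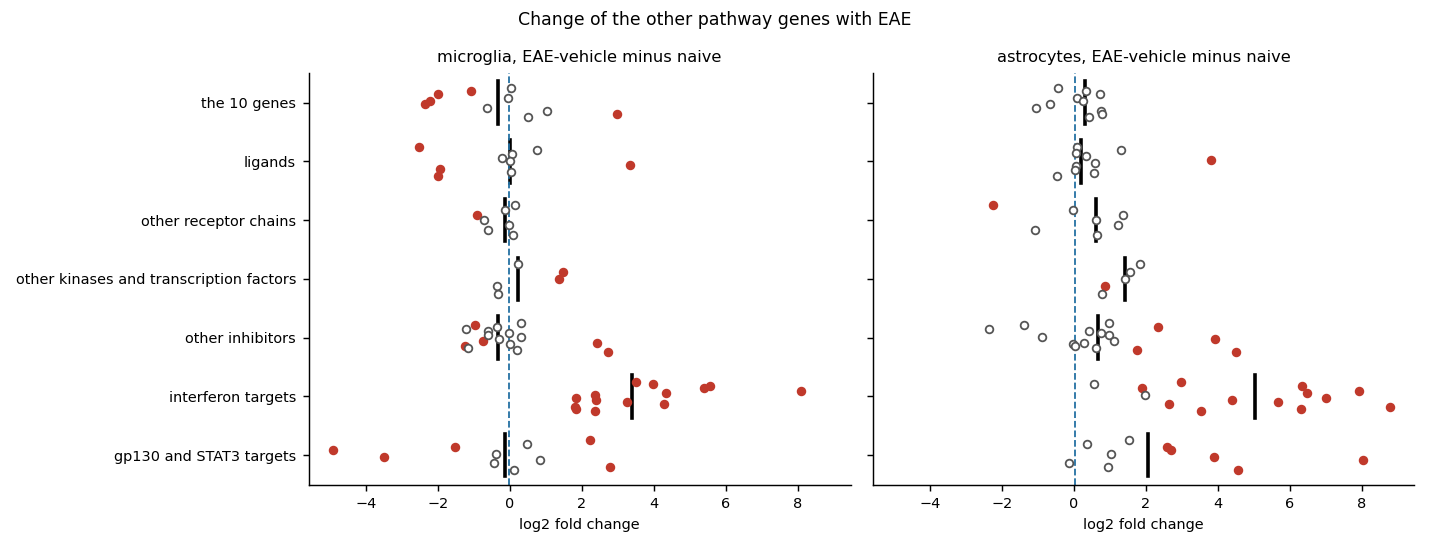
Log2 fold change (horizontal axis) of EAE-vehicle minus naive for each gene of the member group and of 6 pathway lists, in microglia and in astrocytes. Filled points passed the cutoff, black bars are list medians and the dashed line is the median of all genes; all 14 interferon targets are to the right of 0 in microglia and in astrocytes, while the 10 genes lie on both sides.

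Genes whose levels followed the members most closely over the 15 microglia libraries were sought among 5700 protein-coding genes with a mean of at least 3, without a test, and these libraries share the treatment groups and the normalization. Ifngr1 was most like Rnase4 (Pearson r = 0.954) and Slc2a5, a fructose transporter gene (r = 0.949). Il6ra was most like Cx3cr1 (r = 0.95), the fractalkine receptor gene whose product was part of the sort gate, and Dip2b (r = 0.942). Ifnar2 was most like Tnfaip8l2 (r = 0.933) and Mat2a (r = 0.906), and Il6st like Ctc1 (r = 0.930) and Pttg1ip (r = 0.929). Socs1 was most like Adora1 (r = 0.909) and Ciita (r = 0.901), and Socs3 like Ssh3 (r = 0.896) and Cdkn1a (r = 0.862). For Ifngr2 these were Lag3 (r = 0.925) and Lrch4 (r = 0.910), for Ifnar1 Hgs (r = 0.854) and Gltp (r = 0.777), for Jak1 Cnpy3 (r = 0.880) and Stx5a (r = 0.875), and for Jak2 Cisd2 (r = 0.862) and Apool (r = 0.851).

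Over the 15 astrocyte libraries and 4714 genes, Ifngr1 was most like Ets1 (r = 0.837) and Il2rg (r = 0.766), the common cytokine receptor chain of lymphocytes. Ifnar2 was most like Egln2 (r = 0.969) and Tmem50b (r = 0.934), Jak1 like Armc1 (r = 0.940) and Cuta (r = 0.937), Ifnar1 like Sema4a (r = 0.936) and Alkbh3 (r = 0.890), and Il6st like Pgp (r = 0.889) and Tmem223 (r = 0.845). For the other members with a mean of at least 1 these were Socs1 with Mapkapk3 (r = 0.795) and Mog (r = 0.713), Jak2 with Chil1 (r = 0.789) and Limch1 (r = 0.759), Ifngr2 with Rpp21 (r = 0.765) and Glrx5 (r = 0.753), and Socs3 with Eef1g (r = 0.740) and Tyrobp (r = 0.697). Once each library was taken as its deviation from its group mean, the closest pair of members in microglia was Ifngr2 and Socs3 (r = 0.86), followed by Socs1 and Socs3 (r = 0.79), Il6st and Il6ra (r = 0.74) and Il6st and Jak1 (r = 0.70). In astrocytes it was Ifnar1 and Ifnar2 (r = 0.68), with Ifnar2 and Jak1 next (r = 0.61). Deviations over 15 libraries share each library's depth, so these values are a description.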

How the data were processed

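RNA-seq libraries of astrocytes and microglia were assigned to groups by their labelled cell type and treatment. Per the study's methods the authors processed reads in OmicSoft Array Studio, and they deposited log2 FPKM values for 30952 genes. All 30 libraries hold the same sorted values, so the table is quantile-normalized; the offset added before the logarithm and the depth are unknown, so no counting error is given, and folds of low genes may be understated. Positions of the 10 genes equal GENCODE M21 (GRCm38). The labels name no pairing, and the study names a paired test without saying what is paired. Within a cell type, p-values measure the spread between mice. Across cell types they take the libraries as independent, although the cell types share mice.

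limma 3.58.1 (R 4.3.3, variance trend) was fitted to the 15 libraries of each cell type, or to all 30 across cell types, after testing on simulated data. P-values were adjusted by Benjamini-Hochberg over all genes tested. Exact permutation tests were two-sided over libraries. Alternatives were centring on library medians, adding 1 again before the logarithm, setting genes without signal to 0, quality weights, no variance trend, a mean of at least 1, a replicate block and leaving out each library. Members and lists were chosen with earlier results of these data known. All members were named; of each list and comparison up to 4 genes with an adjusted p under 0.05 and the largest change, or else the 2 largest of those called. Likest genes were the 2 of highest Pearson r among protein-coding genes with a mean of at least 3, for members with a mean of at least 1. One gene of the list of kinases and transcription factors is not reported here, and the list was counted without it.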

Additional observations from a re-analysis of the deposited data

Results flagged for a closer look

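Dixon's criterion sets a library apart in about 1 of 20 groups where values are independent and normally spread. The members share libraries and some groups lie near 0, so that rate does not hold here. In 60 groups of 4 to 6 libraries, 11 held a library set apart from the rest of its group by this criterion. In microglia these were Il6st in naive library 3 (6.13, others 5.21 to 5.28), Il6st in EAE-vehicle library 4 (1.77, others 3.17 to 3.80) and Jak1 in the same library (3.97, others 4.89 to 5.37). In EAE-vehicle astrocytes, Ifngr1 was low in library 4 (1.44, others 5.51 to 7.30), Ifngr2 was without signal in library 5 (0.00, others 2.44 to 3.69), and Ifnar2 (0.0121, others 4.09 to 5.36) and Jak1 (0.18, others 4.90 to 6.03) were without signal in library 1. In EAE-RIPK1inh astrocytes, Ifngr2 was low in library 4 (0.69, others 3.05 to 3.28) and Ifnar1 high in library 5 (5.11, others 2.88 to 3.38). In naive astrocytes, Socs1 was high in library 3 (1.37, others 0.00 to 0.03) and Socs3 in library 2 (2.06, others 0.00 to 0.09).

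The test of the difference between the EAE effects in microglia and astrocytes called Ifngr1 (-2.71), Il6st (-1.71) and Il6ra (-2.49), each lower in microglia. None passed limma's adjustment over all genes. Of 30 fits that left out a library, Ifngr1 lost its call in 23 and Il6st in 2. The Il6ra difference rests on astrocyte values near 0.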

How the results depend on the processing

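The 5 calls of EAE in microglia (Ifngr1, Ifnar2, Il6st, Il6ra and Socs1) and the call of Ifnar2 with the inhibitor kept their direction and passed the cutoff in all 7 alternatives and with any library left out. Of 70 member results compared, 65 kept sign and call with the replicate block and 52 with library quality weights. The other 5 alternatives kept 67 to 69. Correlations of deviations between same-numbered libraries were -0.110 to 0.240 within microglia, -0.156 to 0.077 within astrocytes and -0.035 to 0.125 between cell types. Between differently numbered libraries they were -0.353 to 0.336, -0.102 to 0.164 and -0.144 to 0.085. The medians were 0.066, 0.008 and 0.026 for same numbers and -0.015, -0.013 and -0.007 for different ones. The ranges overlapped and the labels name no pairing, so numbers were not read as pairs, which does not exclude a pairing. The depth behind each value is unknown, so low members cannot be separated from absent ones.

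With library quality weights, Jak1 was called for EAE in microglia (-1.004), where 3292 genes of the table were called beside 3473 without weights. With the inhibitor 4 members were then called in microglia (Ifnar2, Ifngr2, Il6ra and Socs3) and 2 in astrocytes (Il6st and Jak2). The genes called over the whole table rose with these weights from 511 to 2730 for the inhibitor in microglia and from 927 to 1368 in astrocytes. They rose from 2060 to 3698 for EAE in astrocytes and from 976 to 1604 for the difference of the inhibitor's effects, and the cause was not tested. That difference had 557 genes called with the filter on the mean, which tests only genes with a mean of at least 1. The members called with 1 library left out numbered 1 to 3 for the inhibitor in microglia, 0 to 2 in astrocytes, 1 to 4 for the difference of the EAE effects and 0 to 1 for that of the inhibitor's effects. Over the whole table, of 28958, 30718, 30952 and 30952 genes tested with all libraries, these fits called 365 to 953, 800 to 1087, 2452 to 2885 and 797 to 1227. The replicate block called 3065 genes for EAE in microglia where 3473 were called without it and gave Socs1 a call in the difference of the EAE effects (2.21), as did adding 1 again before the logarithm (1.86). The call of Ifngr1 in that difference (-2.71) was lost with the block, with genes without signal set to 0, without the variance trend and with quality weights (-2.22). That of Il6st between naive cell types (1.16) was lost with the block, the filter on the mean, centring (1.05) and quality weights.

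Log2 changes turned sign for members that were not called. With quality weights this held in microglia for Ifnar1 with EAE (-0.086) and Socs1 with the inhibitor (-0.046), in astrocytes for Ifngr2 with EAE (-0.13) and for Ifngr1 (0.35) and Ifnar2 (-0.20) with the inhibitor, in the difference of the EAE effects for Jak1 (-0.46), Jak2 (-0.33) and Socs3 (-0.93), and between EAE-vehicle cell types for Jak1 (-0.13) and Jak2 (-0.075). With the block it held for EAE in Ifnar1 of microglia (-0.056) and Socs3 of astrocytes (-0.19), and with centring for Socs3 in the difference of the EAE effects (-0.11) and Jak1 between naive cell types (-0.094).

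With 1 library left out, signs turned for EAE in microglia in Ifngr2 (-0.41 to 0.20), Ifnar1 (-0.052 to 0.14) and Socs3 (-0.013 to 1.16), and for the inhibitor there in Ifngr1 (-0.068 to 0.40), Ifnar1 (-0.14 to 0.19), Il6st (-0.082 to 0.35), Jak1 (-0.082 to 0.30), Jak2 (-0.37 to 0.019) and Socs1 (-0.27 to 0.53). In astrocytes they turned for EAE in Ifngr2 (-0.41 to 0.70), Ifnar1 (-1.37 to 0.14) and Ifnar2 (-0.85 to 1.13), and for the inhibitor in Ifngr2 (-0.43 to 0.57) and Ifnar2 (-0.26 to 0.81). In the difference of the EAE effects they turned for Ifngr2 (-0.76 to 0.35), Ifnar1 (-0.10 to 1.41), Jak1 (-0.46 to 0.71), Jak2 (-0.29 to 1.04) and Socs3 (-0.44 to 0.74), between naive cell types for Jak1 (-0.28 to 0.46) and Jak2 (-0.28 to 1.05), and between EAE-vehicle cell types for Jak1 (-0.45 to 0.72).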
